A study of Homo sapiens with 2 samples.

Results

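The regions described here are the ASH1 peaks of K562 cells that lie in the darkest-staining Giemsa bands of the autosomes. Giemsa banding divides each chromosome into light bands, which are rich in genes and replicate early, and dark bands, which are poor in genes, late-replicating and largely held in compact chromatin at the nuclear edge. ASH1 (gene symbol ASH1L) is a trithorax-group protein with a SET domain that methylates lysine 36 of histone H3, a mark of transcribed chromatin. Its peaks in these gene-poor bands were therefore set against those of the light bands. A peak was a member if it lay on chromosomes 1 to 22 and its midpoint fell in a band of stain gpos100 in the UCSC hg19 band table. There were 293 members among 5556 deposited peaks: 100 of the 910 peaks of replicate 1 and 193 of the 4646 peaks of replicate 2.

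Both samples were chromatin immunoprecipitations followed by sequencing from K562, an established human chronic myelogenous leukaemia line, grown without treatment. They form 1 group. Replicate 1 used antibody batch 1 and replicate 2 used antibody batch 3 of a rabbit polyclonal antibody raised against the C-terminal end of the protein, so replicate and batch cannot be told apart. Sequencing depth is unknown for both. The score printed for a peak is the authors' own value, in the form of 10 times the negative log10 of a p-value, and it ranks peaks only within its own list. Replicate 1 scores start at 50.03 and replicate 2 scores at 70.02, so the 2 lists do not reach down to the same score.

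The darkest bands held fewer peaks per megabase than the light bands (stain gneg) in both lists. There were 75 such bands, which made up 461.0 Mb or 16% of the autosomes, against 389 light bands with 1221 Mb. In replicate 1 the density was 0.217 peaks per Mb in the darkest bands (95% Poisson interval 0.176 to 0.264) and 0.458 in the light bands (0.421 to 0.497). In replicate 2 it was 0.419 (0.362 to 0.482) and 2.37 (2.28 to 2.46). The darkest-to-light ratio was thus 0.474 in replicate 1 (interval 0.379 to 0.587, exact binomial test, p adjusted over the 2 lists 1.03e-13) and 0.177 in replicate 2 (0.152 to 0.204, adjusted p = 3.36e-199). The size of the ratio depended on the setting: with peaks closer than 1 Mb counted as 1 locus it was 0.718 in replicate 2 (exact binomial test, adjusted p = 0.00105), against adjoining light bands 0.402 and against light bands farther than 5 Mb from chromosome ends 0.283, and in replicate 1 it was 0.235 with scores of at least 70. Poisson and binomial intervals cover counting error only, and neighbouring peaks are not independent, so each p-value is a statement about 1 list and holds no spread between samples. Of the 17 autosomes that have both kinds of band, the darkest bands were the less dense on all 17 in replicate 2 and on 13 in replicate 1. The exceptions in replicate 1 were chromosomes 3, 5, 13 and 14.

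The steps between the stain classes differed between the lists. In replicate 2 the density fell from 2.41 peaks per Mb in gpos25 bands through 1.25 in gpos50 and 0.680 in gpos75 to the 0.419 of the darkest class. In replicate 1 the gpos75 bands had 0.0983 peaks per Mb (0.0695 to 0.135), which is below the darkest bands. The 3 fullest darkest bands of replicate 1 (6p12.3, 5q21.3 and 5p14.3) held 40 of its 100 members on 15.6 Mb, and the other darkest bands had 0.135 peaks per Mb (0.103 to 0.173), an interval that meets that of the gpos75 bands. Those 3 were picked by these same counts and no gpos75 band was left out, so the comparison is not like for like.

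**Figure D1:**
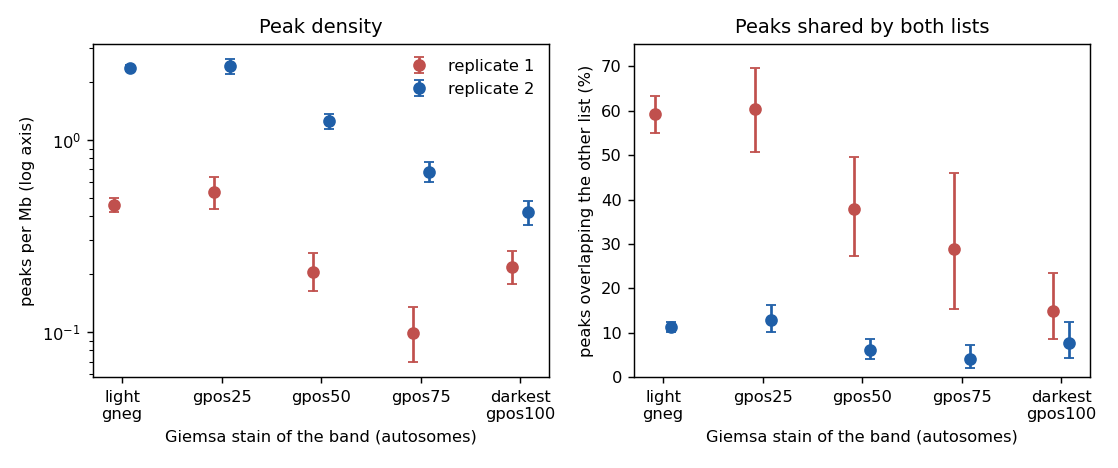
Peaks per Mb on a log axis (left) and the percentage of peaks that overlap the other list (right) for each Giemsa class of the autosomes, with 95% Poisson intervals on the left and Clopper-Pearson intervals on the right. Replicate 2 falls step by step from gpos25 to the darkest class, while replicate 1 is lower in gpos75 (0.0983) than in the darkest class (0.217), where 15.0% of its peaks are shared.

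Measured per gene instead of per megabase, the lists parted. Protein-coding genes were counted per band from the RefSeq table of GRCh38 with the bands of the same build, and joined to the peaks by band name only. The darkest bands hold 1128 of these genes, or 2.45 per Mb, and the light bands 11566, or 9.47 per Mb. Replicate 1 had 8.87 peaks per 100 genes in the darkest bands and 4.83 in the light bands, a ratio of 1.83 (exact binomial test, adjusted p = 1.59e-07). Replicate 2 had 17.1 and 25.01, a ratio of 0.684 (exact binomial test, adjusted p = 1.59e-07). Counting by genes was chosen after the data had been seen, and both tests take clustered peaks as independent. Without the 3 fullest bands the replicate 1 ratio was 1.14 (exact binomial test, adjusted p = 0.352). Those bands were picked by their replicate 1 counts and no light band was left out, so a lower ratio follows from the choice. No peak was assigned to a gene, because the gene table and the peaks are on different builds. Where only some genes of a band are named below, they are examples picked without a set rule. They need not lie near any peak and show no theme of the members.

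Members were spread thinly over most of these bands in replicate 2 and unevenly in replicate 1. Replicate 2 had a peak in 64 of the 75 bands, with a median of 2 per band and at most 13. Replicate 1 had one in 33 bands, with 19 in its fullest band. The variance of the counts per band was 6.70 times their mean in replicate 1 and 2.24 times in replicate 2; band length was not taken out of this ratio. In the light bands it was 9.90 and 20.7. The 3 fullest darkest bands held 40.0% of the members in replicate 1 and 16.6% in replicate 2 (16q21, 10q23.1 and 13q33.3). No band was among the 3 fullest of both lists. Both lists had a peak in 31 bands, replicate 1 alone in 2 (1q31.1 and 14q21.3), replicate 2 alone in 33, and neither in 9.

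Each of the 811 autosomal bands was tested against its share of the autosomal length with an exact binomial test and Benjamini-Hochberg adjustment over all of them. In replicate 1, 4 of the 75 darkest bands held more peaks than their length would give, against 4.19% of all autosomal bands. They were 6p12.3 with 19 peaks (11 times its share, adjusted exact p = 1.22e-11), 5q21.3 with 11 (6.98 times, adjusted exact p = 6.9e-05), 5p14.3 with 10 (6.61 times, adjusted exact p = 0.00028) and 13q31.3 with 8 (5.18 times, adjusted exact p = 0.0078). With scores of at least 70 only 6p12.3 and 5p14.3 were still called, and the calls for 5q21.3 and 13q31.3 were lost. In replicate 2 the number of darkest bands called higher was 0, with 0 also at an unadjusted p under 0.05, against 10.6% of all bands. Called lower in replicate 2 were 37 of the 75 darkest bands, against 10.9% of all bands, with 0 to 6 peaks each. In replicate 1 the number called lower was 0, in the darkest class as among all bands (0%), and 1 darkest band, 1p31.1, was lower at an unadjusted p under 0.05. A list of 890 autosomal peaks leaves few expected peaks per band, so a deficit in a single band was hardly detectable there. The band 5p14.3 was called higher in replicate 1 and lower in replicate 2 (1 peak, 0.132 times its share, adjusted exact p = 0.045), but the call in replicate 2 was lost with peaks closer than 10 kb merged.

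**Figure D2:**
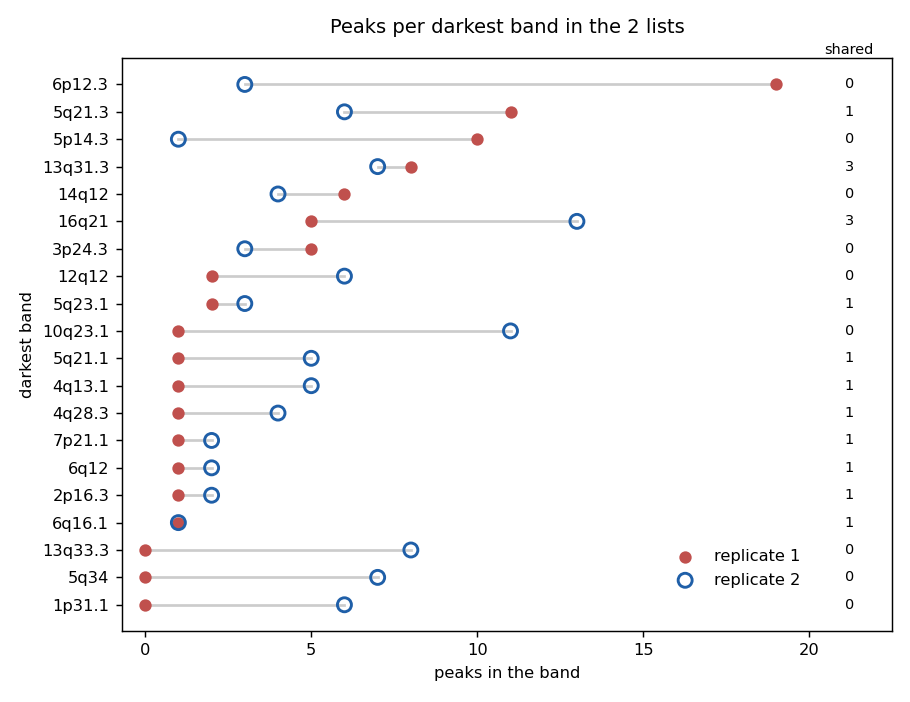
Number of peaks in replicate 1 (filled) and replicate 2 (open) in each darkest band with at least 5 peaks in either list or with a shared peak; the column at the right gives the number of replicate 1 peaks that overlap replicate 2. Replicate 1 reaches 19 peaks in 6p12.3, where replicate 2 has 3, and replicate 2 reaches 13 in 16q21 and 11 in 10q23.1, where replicate 1 has 5 and 1.

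The light band beside 6p12.3 also held many replicate 1 peaks. 6p12.3 (chromosome 6, 46200001 to 51800000) holds 29 protein-coding genes, among them RHAG, a membrane glycoprotein of red blood cells, and the transcription factors TFAP2B and TFAP2D. The adjoining light band 6p21.1 had 60 replicate 1 peaks and 19 replicate 2 peaks. The 6p12.3 peak of replicate 1 nearest to 6p21.1 lay 593 kb from the band edge. Within 6p12.3, 10 of the 19 peaks formed 1 run from 49654790 to 50075569 in which no neighbouring peaks lay 100 kb or more apart. Widths ran from 566 to 1778 bp and scores from 52.41 to 115.3. None of the 19 overlapped replicate 2, whose 3 peaks there (scores 70.91 to 93.05) all lay within 51205223 to 51508171. The gap from a replicate 1 peak to the nearest replicate 2 peak had a median of 1351 kb.

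On chromosome 5 the replicate 1 members of 5p14.3 and 5q21.3 also came in runs. 5p14.3 (18400001 to 23300000) holds only 2 protein-coding genes, the cadherins CDH18 and CDH12, which are cell adhesion molecules. A run of 6 of its 10 replicate 1 peaks covered 227 kb, from 18914349 to 19141083. The tenth stood apart: it lay from 21486894 to 21492238, was 5345 bp wide and scored 95.18, against widths of 621 to 1110 bp for the other 9. The single replicate 2 peak, with a score of 111.69, was 470 kb from the nearest of them. 5q21.3 (104500001 to 109600000) holds 5 protein-coding genes, including EFNA5, an ephrin ligand, and the tyrosine kinase FER. Of its 11 replicate 1 peaks, 4 formed a run of 196 kb from 108845184 to 109040960, and 1 of the 11 overlapped one of the 6 replicate 2 peaks.

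The fullest replicate 2 bands were filled otherwise. 16q21 (chromosome 16, 57400001 to 66700000) holds 39 protein-coding genes, among them the chemokines CCL17, CCL22 and CX3CL1 and the cadherins CDH5, CDH8 and CDH11. Its 13 replicate 2 peaks scored from 112.46 to 606.43, the longest run had 3 peaks over 77.1 kb, and 3 of the 5 replicate 1 peaks of the band were shared. In 10q23.1 the 11 replicate 2 peaks included 3 close pairs spanning 4.96 to 9.78 kb, and the single replicate 1 peak lay 608 kb from the nearest of them. In 13q33.3, which holds the ephrin ligand gene EFNB2 and the DNA ligase gene LIG4, replicate 2 had 8 peaks and replicate 1 had 0. In 5q34 the counts were 7 and 0. In 1p31.1, the longest of the bands named here with 15.2 Mb, they were 6 and 0. The remaining bands with at least 5 peaks in a list were 14q12 (6 in replicate 1 and 4 in replicate 2), 3p24.3 (5 and 3), 12q12 (2 and 6), 4q13.1 (1 and 5) and 5q21.1 (1 and 5).

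**Figure D3:**
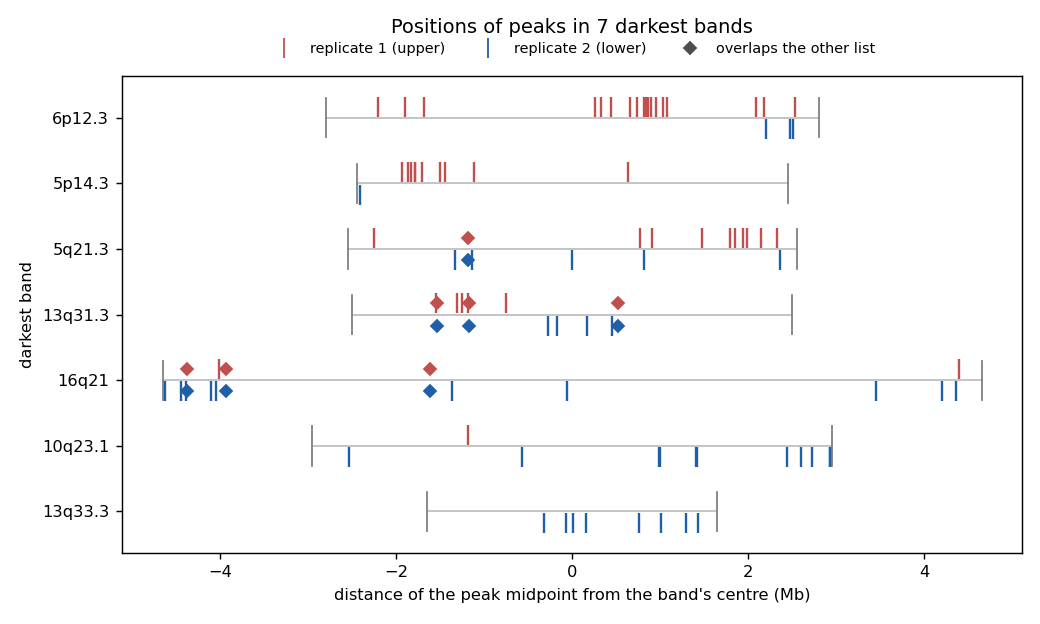
Peak midpoints of replicate 1 (upper marks) and replicate 2 (lower marks) in 7 of the fullest darkest bands, as distance from the centre of the band in Mb; grey bars are the band edges and diamonds are peaks that overlap the other list. The runs of replicate 1 in 6p12.3, 5p14.3 and 5q21.3 have few or no replicate 2 marks opposite, whereas 13q31.3 and 16q21 carry 3 shared sites each.

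Close spacing was more frequent among replicate 1 members than among replicate 2 members. In replicate 1, 38 of 100 members had another peak of their list within 100 kb (38%), near the 36.3% of its light-band peaks. In replicate 2, 33 of 193 did (17.1%), against 63.6% of the light-band peaks, which are 5.66 times as dense. Within 10 kb, 8 of 100 replicate 1 members (8%) and 12 of 193 replicate 2 members (6.22%) had another peak of their list. Of light-band peaks 8.94% and 14.4% did. Median distance to the nearest peak of the same list was 244 kb for replicate 1 members and 674 kb for replicate 2 members, and 210 and 54.8 kb in the light bands. Joining members closer than 100 kb left 73 loci in replicate 1, of which 62 were single peaks and 4 had 3 or more, and 177 loci in replicate 2, of which 162 were single and 1 had 3. Those 4 loci lay in 6p12.3, 5p14.3, 5q21.3 and 13q31.3. These values were not tested, since peaks of a list are not replicates.

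Overlap with the other list was the sharpest difference from the light bands in replicate 1. Peaks were called shared when they overlapped the other list by at least 1 bp. Of the replicate 1 members 15 of 100 were shared (15.0%, 95% Clopper-Pearson interval 8.65 to 23.5%), against 331 of 559 light-band peaks (59.2%, 55.01 to 63.3%) and 51.2% of all its autosomal peaks. The odds ratio was 0.122 (Fisher's exact test, two-sided, p adjusted over the 2 lists 9.23e-17). Fisher's test takes each peak as independent, which clustered peaks are not, so this p-value describes 1 list only. With replicate 1 peaks closer than 1 Mb as 1 locus, 13 of 48 member loci and 162 of 238 light-band loci held a shared peak. The odds ratio was then 0.174 (Fisher's exact test, adjusted p = 3.92e-07). A low share was not particular to the darkest class. Of the replicate 1 peaks in gpos75 bands 28.9% were shared (15.4 to 45.9%), an interval that overlaps that of the members. In replicate 2, 15 of 193 members were shared (7.77%, 4.42 to 12.5%), against 327 of 2893 light-band peaks (11.3%, 10.2 to 12.5%) and 10.1% of all. Shares in gpos75 (4.18%) and gpos50 bands (6.04%) were below that of the members. Between darkest and light bands the odds ratio of 0.661 did not pass the test (Fisher's exact test, adjusted p = 0.154). The odds ratio did pass with scores of at least 70 in both lists (0.389, Fisher's exact test, adjusted p = 0.0297) and with peaks closer than 1 Mb as 1 locus (0.245, adjusted p = 1.20e-06). The first setting kept all 193 members and 2893 light-band peaks and removed only replicate 1 peaks. In the second, a locus was shared if any of its peaks was. The members formed 119 loci and the light-band peaks 439, so a light-band locus pools more peaks and is shared more readily. Neither setting is therefore a like-for-like test of replicate 2 peaks. The replicate 2 list is 5.66 times as dense in the light bands, so a replicate 1 peak there has more peaks near it; the part of this density in the difference was not tested. With the 3 fullest bands left out, 14 of 60 replicate 1 members were shared (23.3%), and the 40 members of those bands contributed 1 shared peak. Against light bands that directly adjoin a darkest band, of whose replicate 1 peaks 34% were shared, the odds ratio was 0.343 (Fisher's exact test, adjusted p = 0.00174).

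Members of replicate 1 also had lower scores, and the shared percentage was below that of the light bands in each of the 4 score ranges examined. Their median score was 56.7 (quartiles 53.2 and 66.8), against 62.6 in the light bands (54.7 and 87.2), and 80 of 100 scored below 70 against 59.7%. Medians in gpos25, gpos50 and gpos75 bands were 67.6, 59.7 and 57.8, and 73.7% of gpos75 peaks scored below 70. Low scores thus did not mark the darkest class alone. Among peaks scoring 50 to 60, 5 of 62 members were shared (8.06%, 2.67 to 17.8%) and 39.7% of light-band peaks (33.4 to 46.2%). From 60 to 70 the shares were 5 of 18 (27.8%, 9.69 to 53.5%) and 51.5% (41.2 to 61.8%). From 70 to 100 they were 4 of 17 (23.5%, 6.81 to 49.9%) and 75% (66.4 to 82.3%). At 100 and above, 1 of 3 members and 94 of 101 light-band peaks were shared. The intervals of the darkest and light bands overlapped from 60 to 70 and at 100 and above. In replicate 2 the median score was 138.6 in the darkest and 154.4 in the light bands, with 141.4, 137.0 and 129 in gpos25, gpos50 and gpos75 bands. The replicate 2 shares of darkest and light bands lay close together below a score of 300, for example 4 of 44 (9.09%, 2.53 to 21.7%) and 10.6% (8.66 to 12.9%) from 150 to 300. From 300 to 500 they were 2 of 23 (8.70%, 1.07 to 28.04%) and 26.8% (22.4 to 31.5%), and at 500 and above 6 of 19 (31.6%, 12.6 to 56.6%) and 41.6% (35.1 to 48.2%). In both of these upper ranges the 2 intervals overlap.

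The 15 shared sites lay in 11 bands on 7 chromosomes, and no band held more than 3. Each was 1 replicate 1 peak with 1 replicate 2 peak, the midpoints a median of 80.5 bp apart. Replicate 2 scored higher at all 15, and at 315 of the 331 light-band sites. Scores rank peaks only within their own list, so a higher value in replicate 2 is not a measure of stronger binding. Replicate 1 scores had a median of 66.7 and 10 of the 15 were below 70, while replicate 2 scores had a median of 327.6. The ratio of replicate 2 to replicate 1 score had a median of 4.16 (quartiles 2.70 and 10.07), next to 4.22 (2.71 and 6.38) at the 331 light-band sites. Sites with a score of at least 100 in replicate 1 numbered 1 of 15 here and 94 of 331 there (28.4%). Sites with at least 500 in replicate 2 numbered 6 of 15 and 96 of 331 (29.0%).

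The highest of the shared sites by both scores was in 4q28.3, a band with 4 protein-coding genes, of which PCDH10 and PCDH18 encode protocadherins and SLC7A11 a cystine transporter. It lay on chromosome 4 from 138088416 to 138089677 in replicate 1, with scores of 115.52 in replicate 1 and 973.28 in replicate 2. In 4q13.1, which holds the ephrin receptor gene EPHA5, the site from 65733884 to 65734601 scored 74.74 and 834.84. The 6q12 site (chromosome 6, 67846372 to 67847015) scored 54.82 and 701.66, the largest ratio of the 15 at 12.8. On the same chromosome the 6q16.1 site (95933763 to 95934504), in a band with the ephrin receptor gene EPHA7, scored 50.70 and 515.29. The 7p21.1 site (chromosome 7, 18772153 to 18772719) scored 51.89 and 537.72; its band holds AHR, the aryl hydrocarbon receptor, and HDAC9, a histone deacetylase. These last 3 replicate 1 scores stand within 5 of the lowest in the list, at sites where replicate 2 exceeded 500.

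In 16q21 the 3 shared sites lay on chromosome 16 at 57678349 to 57678937 (scores 55.09 and 213.76), 58121228 to 58121913 (66.73 and 174.87) and 60440061 to 60440820 (59.24 and 590.46). Chromosome 5 carried 3 more. The 5q21.1 site (100422496 to 100423099) scored 76.88 and 214.45. The 5q21.3 site (105870970 to 105871660) scored 66.92 and 84.51, the smallest ratio of the 15 at 1.26. At the 5q23.1 site (117877586 to 117878283, scores 77.45 and 463.65) the replicate 1 peak of 698 bp lay inside a replicate 2 peak of 4572 bp, the widest member of that list. In 2p16.3, scores were 78.76 and 327.60 at the site on chromosome 2 from 48127235 to 48128133.

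**Figure D4:**
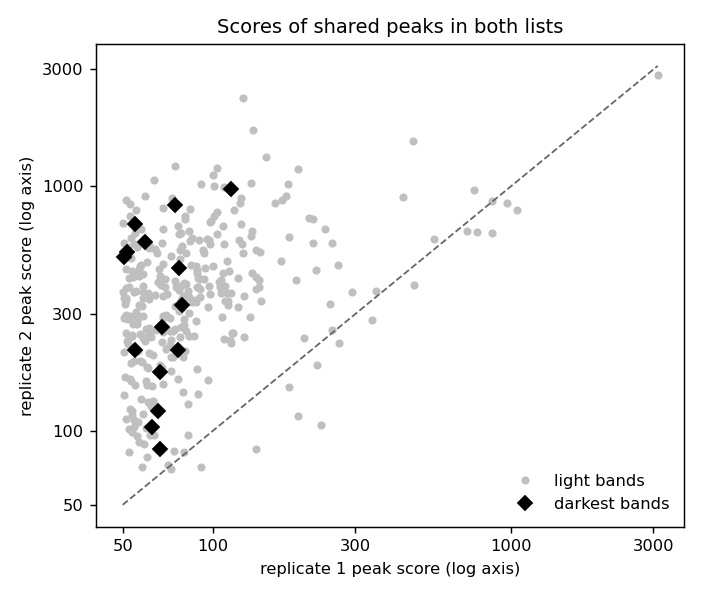
Scores of sites shared by both lists, replicate 1 on the horizontal and replicate 2 on the vertical axis (both log), for 15 sites in the darkest bands (diamonds) and 331 in light bands (grey); the dashed line marks equal scores. All 15 diamonds lie above the line, as do 315 of the 331 light-band sites, and 14 diamonds have a replicate 1 score below 100. The scores of the 2 lists are not on 1 scale.

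Members were slightly narrower than light-band peaks. In replicate 1 the median width was 748.5 bp (quartiles 645.5 and 949 bp) against 958 bp (760 and 1188 bp), and in replicate 2 it was 1007 bp (853 and 1264 bp) against 1089 bp (898 and 1417 bp). The quartile ranges overlap in both lists and the difference was not tested. Narrower peaks were not particular to the darkest class. Medians in gpos25, gpos50 and gpos75 bands were 996, 824 and 812.5 bp in replicate 1. In replicate 2 they were 1079, 969.5 and 999 bp, so gpos50 and gpos75 lay below the members. In peaks scoring 70 to 150 the replicate 2 difference was -24 bp and the replicate 1 difference -246.5 bp, the latter over 20 members.

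The band 13q31.3 went the other way. It lies on chromosome 13 from 90000001 to 95000000 and holds 2 protein-coding genes, GPC5 and GPC6, which encode glypicans, heparan sulphate proteoglycans of the cell surface. Its 8 replicate 1 peaks were 1610 to 5746 bp wide with a median of 2609 bp, and all 8 were wider than the upper quartile of the list (1176 bp). Of the 8 replicate 1 members of at least 2 kb in all darkest bands, 7 lay there; the other was the 5345 bp peak of 5p14.3. In replicate 2 its 7 peaks had widths of 537 to 3640 bp with a median of 2360 bp, and 4 of them were among the 15 members of at least 2 kb. Scores ran from 53.26 to 67.90 in replicate 1, with a median of 57.4 next to 56.7 for all members, and from 83.60 to 267.06 in replicate 2. Without this band the median width of members was 723 bp in replicate 1 and 996 bp in replicate 2. The band was singled out after its values had been seen.

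13q31.3 held 3 shared sites, as many as 16q21, and its call for more replicate 1 peaks than its length would give was lost with scores of at least 70. The shared sites lay at 90965713 to 90968192 (scores 67.90 and 267.06), 91323553 to 91326660 (62.83 and 104.20) and 93016819 to 93018853 (65.92 and 121.35). At the first and the third the replicate 2 width was 0.952 and 0.954 times that of replicate 1, whereas the other 13 shared sites were wider in replicate 2. The rest of chromosome 13 held 2 replicate 1 peaks and 107 replicate 2 peaks, with median widths of 959.5 and 953 bp. The flanking light bands 13q31.2 and 13q32.1 had 0 replicate 1 peaks and 1 and 2 replicate 2 peaks. Copy number was not measured, so a change in binding and a change in the number of copies cannot be told apart for this or any other band.

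**Figure D5:**
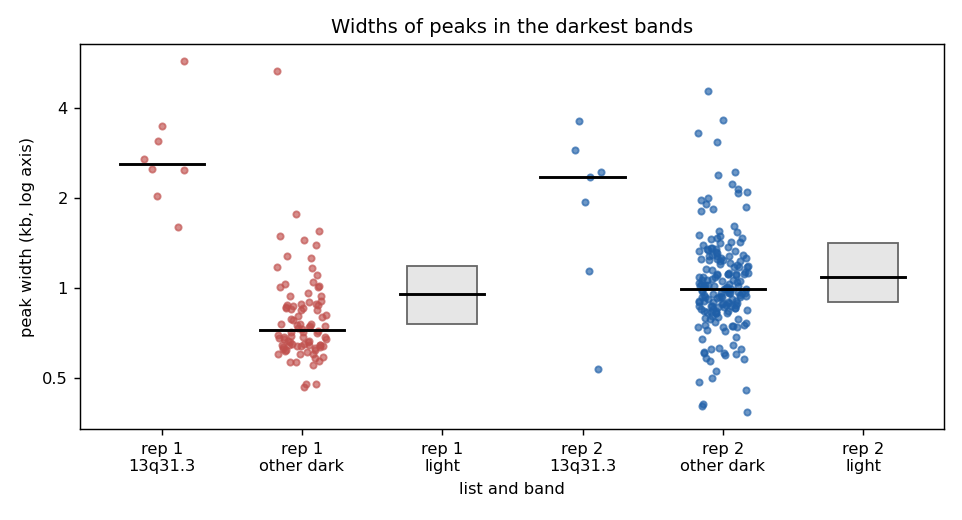
Peak width in kb on a log axis for members in 13q31.3 and in the other darkest bands (1 point per peak, with the median as a bar), and the quartile range and median of light-band peaks (box and bar), for each list. The 13q31.3 medians of 2609 bp in replicate 1 and 2360 bp in replicate 2 lie above the light-band boxes, and those of the other darkest bands, 723 and 996 bp, below the light-band medians.

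The highest-scoring member of each list was unshared, although in replicate 1 the shared 4q28.3 site came next. The 3 highest unshared replicate 1 peaks lay in 3p24.3 (chromosome 3, 18079745 to 18081302, score 120.16, the highest of the 100 members), 6p12.3 (49445304 to 49446702, 115.3) and 5p14.3 (the 5345 bp peak, 95.18). In replicate 2 they lay in 13q33.3 (chromosome 13, 110075968 to 110077175, score 2346.88), in 12p12.3 (chromosome 12, 18249057 to 18250352, 1103.82) and in 8p22 (chromosome 8, 16564248 to 16566338, 985.47). The nearest replicate 1 peak was 1619 kb, 11287 kb and 4257 kb away from these 3. The widest members beside those already given were the 3502 bp peak of 13q31.3 in replicate 1 (90949722 to 90953223, score 53.26) and a 3658 bp peak of 13q33.3 in replicate 2 (108579631 to 108583288, score 111.15). Among all unshared members, the nearest peak of the other list lay a median of 608 kb away in replicate 1 and 2557 kb in replicate 2, against 116 and 541 kb in the light bands.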

How the data were processed

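ASH1 chromatin immunoprecipitation was sequenced in 2 K562 samples, and the authors deposited 1 peak list per sample. The score in each deposited list was made by the authors with MACS, after alignment with BWA, per the submitters' processing notes. Their versions and settings, and any control, were not given in the sources used. Those notes name hg19 and GRCh38; positions were read as hg19, since 0 peaks on assembled chromosomes end beyond them in hg19. Sequencing depth is unknown.

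Bands were the UCSC hg19 table shipped with circlize 0.4.16. Peaks took the band of their midpoint. Densities were compared with exact binomial tests and shares with Fisher's exact test, adjusted over the 2 lists, and 811 bands by exact binomial tests with Benjamini-Hochberg adjustment (threshold 0.05). The band test was checked on simulated lists whose peaks fell independently of each other. Peaks of the real lists cluster, so that check does not cover false calls from clustered peaks. Named were darkest bands with at least 5 peaks or a shared peak, shared peaks, and the 3 highest unshared and 3 widest peaks of each list. Members, lists and tests were chosen with earlier results of these data known. No hg19 genome or annotation was used here, so no sequence is printed. Positions are 1-based. Alternatives covered scores, overlap, merging, band choice and list length. Tests ran in scipy 1.17.1 with pandas 2.3.3 and numpy 2.4.6 (Python 3.11.15), the band table was read in R 4.3.3, and plots came from matplotlib 3.10.9.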

Additional observations from a re-analysis of the deposited data

Results flagged for a closer look

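Darkest bands of chromosome X were outside the comparisons above. Over these 6 bands (37.5 Mb) replicate 2 had 12 peaks, or 0.32 per Mb, next to 0.419 per Mb on the autosomes. They are given because 12 is above the limit of 3 that a count of 0 allows, which says only that peaks were listed there. Their highest score was 974.64. Replicate 1, a list of 910 peaks against 4646, had 0 peaks there, and 0 of the 12 were shared; the difference between the lists was not tested.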

How the results depend on the processing

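In the density comparison the darkest bands stayed below the light bands, with the exact binomial test passed, under all 6 length-based alternatives in each list (ratios 0.235 to 0.631 in replicate 1 and 0.154 to 0.718 in replicate 2). Not all 6 could change the result. Scores of at least 70 removed no replicate 2 peak, and peaks wholly inside 1 band left replicate 1 as it was. Without the 3 fullest darkest bands the ratios were 0.294 and 0.154, but no light band was left out, so lower ratios follow from that choice. Protein-coding genes in place of length, adjoining light bands, single score ranges in the overlap, leaving out 13q31.3, and members per locus without the 3 fullest bands were chosen after seeing the data. Counting genes turned the replicate 1 ratio to 1.83, and to 1.14 without its 3 fullest darkest bands, with no light band left out. The mean ratio over both lists, 0.325, was 0.177 to 0.474 when a replicate was left out. The lower shared share in replicate 1 passed Fisher's exact test in all 8 alternatives (odds ratios 0.0677 to 0.343). In replicate 2 it passed with both lists at scores of at least 70 (odds ratio 0.389, Fisher's exact test, adjusted p = 0.0297) and with peaks closer than 1 Mb counted as 1 locus (0.245, adjusted p = 1.20e-06), and in none of the other 6 (adjusted p from 0.0742 to 0.215). The first of these settings removed only replicate 1 peaks, and the second pooled more light-band peaks than members per locus. Neither is a like-for-like test. Not all 8 alternatives could change the replicate 1 result either. Overlap of at least 50% of the shorter peak left 15 of 100 members and 330 of 559 light-band peaks shared. At 1 Mb, a replicate 1 locus was likewise shared if any of its peaks was. With scores of at least 70, the replicate 1 darkest bands called higher went from 4 to 2, 5p14.3 and 6p12.3. With peaks closer than 10 kb merged, darkest bands called lower in replicate 2 went from 37 to 28. Replicate 1 members per locus, 1.37 at 100 kb, were 1.04 at 10 kb, 2.08 at 1 Mb, 1.11 with scores of at least 70 and 1.13 without its 3 fullest bands. Replicate 2 members per locus, 1.09 at 100 kb, were 1.03 at 10 kb and 1.62 at 1 Mb. Width differences kept their sign in all 3 alternatives (-246.5 to -207.5 bp in replicate 1, -93 to -24 bp in replicate 2). The cause was not tested for any of these. The overlap needs both lists, so no value exists without a replicate. No paired analysis was possible because both samples belong to 1 group. Since no read totals are known, sites in 1 list only may lie below the other's threshold.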

Other observations

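Darkest bands with few and with more genes were set side by side. The 39 bands with at most 13 protein-coding genes had 0.199 peaks per Mb in replicate 1 and 0.394 in replicate 2, and the 36 bands with more had 0.233 and 0.441. Of the 15 shared sites, 10 lay in the gene-poorer bands, which make up 220.6 of the 461.0 Mb. Bands with a peak in neither list were 12q21.31, 14q21.1, 21q21.1, 3q24, 3q26.1, 7p21.3, 8q21.3, 9p21.3 and 9p21.1, with 56.5 Mb and 144 protein-coding genes between them. None of these values was tested.

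Members lay near band edges about as often as length would give in replicate 1 and more often in replicate 2; this was not tested. Within 500 kb of an edge lay 16% of replicate 1 and 21.8% of replicate 2 members, against 16.3% of the length of the darkest bands. In the light bands the values were 21% and 25.2% against 31.0% of length. Band edges in the table are approximate, and 2 replicate 1 and 10 replicate 2 members lay within 100 kb of one, where the class of a peak is uncertain. No member of either list lay within 5 Mb of a chromosome end, where the darkest bands have 0.0282% of their length; of light-band peaks, 34.3% of replicate 1 and 45.5% of replicate 2 lay there.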
